A study of Arabidopsis thaliana with 9 samples.

Results

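TUB1, TUB5, TUB6 and TUB9, which encode beta-tubulins, and TUA6, which encodes an alpha-tubulin, were followed in dark-grown Arabidopsis seedlings. The genes were taken by annotated symbol, each by its brightest probe set, and were chosen with earlier results of these same arrays known. All 5 genes had a probe set, among 13356 genes that a probe set named singly. RefSeq lists 6 alpha-tubulin and 9 beta-tubulin genes. Beside the 5 genes, TUA1 and TUB7 had a probe set of their own, and 1 further alpha-tubulin probe set was annotated to 2 genes and is left unnamed.

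Alpha- and beta-tubulin form the dimer from which microtubules are built. In plant cells that elongate, cortical microtubules lie under the plasma membrane and guide the enzyme complexes that lay down cellulose, and so bear on the direction in which a cell grows. Both tubulins are made by small gene families whose members differ in where and when they are expressed. Brassinosteroids are steroid hormones that promote the elongation of the hypocotyl, and BRI1 is their receptor. GATA2 is a transcription factor known in Arabidopsis for promoting light-type development, and brassinosteroid signalling represses its gene.

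Total RNA of whole seedlings was hybridised to Affymetrix arrays, with 3 arrays for each of 3 genotypes, all on the Columbia-0 background. Col was the wild type, bri1-116 was a null mutant of the receptor gene, and AtGATA2ox overexpressed GATA2; the promoter of that line and the number of lines were not given in the sources used here. All groups shared growth on solid medium with 1% sucrose and 108 h of darkness. The bri1-116 seedlings were homozygotes that were picked one by one, after freezing in the dark, from the offspring of heterozygous plants. BRI1 and GATA2 themselves were not analysed here, as no probe set was annotated to either, so neither label was checked on its own gene. No label says whether the 3 arrays of a genotype came from separate cultures, so the spread between them may be technical. The sample records of AtGATA2ox are numbered apart from those of Col and bri1-116, which follow each other. No label states a batch, and a batch that followed AtGATA2ox could not be told apart from its genotype.

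The deposited values were linear intensities, scaled on every array to a common trimmed mean of 500. The lowest value of the 5 genes on any array was 451.6. The brightest of the Bacillus control probe sets, for which no RNA was in the seedlings, reached at most 84.1 on any array. Log2 intensities correlated at 0.891 to 0.941 between arrays of a genotype and at 0.848 to 0.911 between genotypes. The groups also differed in measures of RNA and hybridisation. The ratio of 3′ to 5′ signal of the actin control was higher in AtGATA2ox (4.80 ± 0.992, SD, n = 3) and bri1-116 (3.82 ± 1.02) than in Col (1.91 ± 0.114). The same ratio of the ubiquitin control was highest in bri1-116 (1.61 ± 0.15, against 1.42 ± 0.17 in AtGATA2ox and 1.08 ± 0.02 in Col). That of the GAPDH control overlapped between the genotypes (1.32 ± 0.14 in bri1-116, 1.20 ± 0.11 in AtGATA2ox and 1.10 ± 0.16 in Col). A 25S ribosomal RNA control read 8762.9 and 3533.8 in bri1-116 replicates 1 and 2 and 107.7 in replicate 3. It read 143 to 194.2 in Col, and 110.4, 502.8 and 177.3 in the AtGATA2ox arrays. The mean log2 intensity of the hybridisation controls was lowest in Col (10.1 ± 0.09), higher in bri1-116 (10.6 ± 0.17) and highest in AtGATA2ox (11.2 ± 0.23). The part of these measures in the tubulin values was not tested, but tubulin values are also given under hybridisation-control scaling where that changed a direction or call, as well as with bri1-116 represented by replicate 3 alone where that did.

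TUB1 and TUB5 gave the largest differences of the 5 genes, and they ordered the genotypes differently. Both were below Col in bri1-116 and in AtGATA2ox, but TUB1 was lowest in bri1-116 and TUB5 was lowest in AtGATA2ox. In whole seedlings, fewer cells of a type and less RNA per cell cannot be told apart, here and for all other genes. Differences below are on the log2 scale from a limma fit to log2(intensity + 1) of all 22746 probe sets, with the standard error of the fit. A gene is called changed when its Benjamini-Hochberg adjusted p over all of them is under 0.05. Calls lost when the fit used no intensity trend are listed together at the end. Since the genes were chosen with these comparisons known, their differences and calls are descriptions, given without p-values.

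TUB1 (AT1G75780), a beta-tubulin gene known in Arabidopsis for its repression by light, read 2343.8, 2078 and 2559.6 in the 3 Col arrays. It read 585.3, 652.2 and 451.6 in bri1-116 and 1391.7, 1244.3 and 983.3 in AtGATA2ox. The genotypes did not overlap, and every bri1-116 array was below every AtGATA2ox array. The difference from Col was -2.06 ± 0.18 in bri1-116, a 4.16-fold lower level, and -0.96 ± 0.18 in AtGATA2ox, a 1.94-fold lower level. AtGATA2ox was 1.10 ± 0.18 above bri1-116, a 2.14-fold difference that was 0.53 ± 0.24 and no longer called when arrays were scaled to the hybridisation controls.

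TUB5 (AT1G20010), also a beta-tubulin gene, read 4668.6, 4224.9 and 3929.6 in Col. It read 1726.6, 2234.4 and 1796.6 in bri1-116 and 968.6, 831.6 and 729.8 in AtGATA2ox. The 3 genotypes again did not overlap, here with AtGATA2ox lowest. The difference from Col was -2.35 ± 0.16 in AtGATA2ox, a 5.08-fold lower level, and -1.16 ± 0.16 in bri1-116, a 2.24-fold lower level. AtGATA2ox was 1.19 lower than bri1-116 on the log2 scale (-1.19 ± 0.16, a 2.27-fold difference). Across all probe sets, 3.35% had a more negative difference than TUB5 between AtGATA2ox and Col, and 2.35% had a more negative one than TUB1 between bri1-116 and Col.

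**Figure D1:**
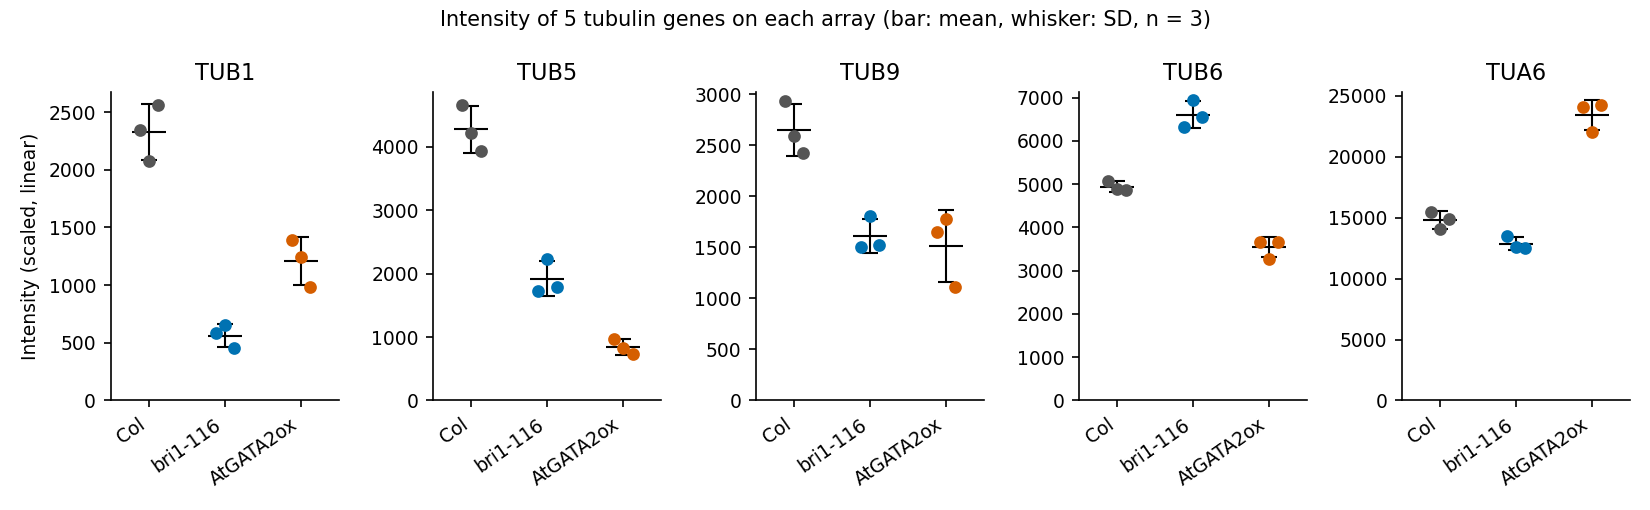
Scaled linear intensity of TUB1, TUB5, TUB9, TUB6 and TUA6 on each of the 3 arrays of Col, bri1-116 and AtGATA2ox; points are arrays, the horizontal bar is the mean and the whisker the SD, and each panel has its own axis from 0. TUB1 is lowest in bri1-116 (451.6 to 652.2), TUB5 is lowest in AtGATA2ox (729.8 to 968.6), and TUA6 is highest in AtGATA2ox (21992 to 24274.7) on the deposited scale, an order against Col that turns to -0.39 on the log2 scale when arrays are scaled to the hybridisation controls.

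TUB9 (AT4G20890), a beta-tubulin gene, was lower in both genotypes than in Col. It read 2929.6, 2586.2 and 2425.1 in Col, 1501, 1805.3 and 1524.2 in bri1-116, and 1649.1, 1779.9 and 1112 in AtGATA2ox. All Col arrays were above the other 6, while bri1-116 and AtGATA2ox overlapped. The differences from Col were -0.72 ± 0.18 in bri1-116 and -0.83 ± 0.18 in AtGATA2ox, and AtGATA2ox differed from bri1-116 by -0.11 ± 0.18, which was not called as deposited but was -0.69 ± 0.25 and called with hybridisation-control scaling. The AtGATA2ox difference was -0.49 ± 0.18 and not called with arrays centred on their medians. The bri1-116 difference was not called without Col replicate 1 (-0.64) or 2 (-0.73), without bri1-116 replicate 1 (-0.67) or 3 (-0.68), or with bri1-116 replicate 3 alone (-0.79).

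TUB6 (AT5G12250), a beta-tubulin gene whose transcript is known in Arabidopsis to fall in the cold, lay on opposite sides of Col in the 2 genotypes. It read 5081.2, 4884.8 and 4857.1 in Col, 6332.7, 6947.5 and 6542.2 in bri1-116, and 3674, 3272 and 3668.1 in AtGATA2ox. The arrays of the 3 genotypes did not overlap. The differences from Col were small, 0.42 ± 0.13 in bri1-116 (1.34-fold higher, but -0.06 ± 0.18 with hybridisation-control scaling) and -0.48 ± 0.13 in AtGATA2ox (1.40-fold lower). AtGATA2ox against bri1-116 gave -0.90 ± 0.13, a 1.87-fold difference. The bri1-116 call was lost with any 1 array of Col or bri1-116 left out (0.38 to 0.45), with bri1-116 replicate 3 alone (0.41) and with quantile normalisation (0.28). The AtGATA2ox call was lost without Col replicate 1 (-0.46) and with arrays centred on their medians (-0.14).

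TUA6 (AT4G14960), the alpha-tubulin gene of the 5, read 15476.6, 14064.4 and 14888 in Col and 24047.8, 21992 and 24274.7 in AtGATA2ox. It read 13471.5, 12618.6 and 12498 in bri1-116. AtGATA2ox was highest on the deposited scale, with no overlap with the other genotypes. The difference between AtGATA2ox and Col was 0.66 ± 0.16 (1.58-fold higher), but 0.12 ± 0.14 with quantile normalisation and -0.39 ± 0.20 with scaling to the hybridisation controls, neither of them called. AtGATA2ox was above bri1-116 by 0.87 ± 0.16, and neither the 0.29 ± 0.20 under hybridisation-control scaling nor the 0.91 ± 0.26 with bri1-116 replicate 3 alone was called. The bri1-116 arrays were all below the Col arrays, yet the difference of -0.20 ± 0.16 was not called on the deposited scale, and was -0.68 ± 0.20 and called with hybridisation-control scaling.

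The count of calls by comparison stands beside the share of all 22746 probe sets called, and nothing is read from it, as the genes were chosen with these comparisons known. Between AtGATA2ox and Col, 4 of the 5 genes were lower, against 18.8% of all probe sets, and 1 was higher, against 9.72%. All 5 had arrays that did not overlap, as did 41.3% of all probe sets. Between bri1-116 and Col, 3 genes were lower, against 8% of all probe sets, and 1 was higher, against 7.09%, with all 5 not overlapping, against 37.6%. Between AtGATA2ox and bri1-116, 2 genes were higher (TUB1 and TUA6), against 9.55% of all probe sets, 2 were lower (TUB5 and TUB6), against 17.2%, and 4 did not overlap, against 37.6%. The median difference of the 5 genes was -0.83 for AtGATA2ox against Col, -0.72 for bri1-116 against Col and -0.11 for AtGATA2ox against bri1-116. The medians of all probe sets in the same order were -0.17, -0.02 and -0.16. The first 2 comparisons share the Col arrays and are not independent of each other.

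The share of all calls that were higher depends on the scaling. For AtGATA2ox against Col it was 34.1% on the deposited scale, 47.2% with quantile normalisation, 58.1% with centring on the median and 3.38% with scaling to the hybridisation controls. For bri1-116 against Col it was 47.0%, and 59.9% and 11.5% with the last 2 of these. For AtGATA2ox against bri1-116 it was 35.7%, and 50.0% and 10.8%. Scaling to the hybridisation controls moved the median of all probe sets by -1.05, -0.47 and -0.57 in the 3 comparisons. Centring on the median moved it by 0.34, 0.14 and 0.20.

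**Figure D2:**
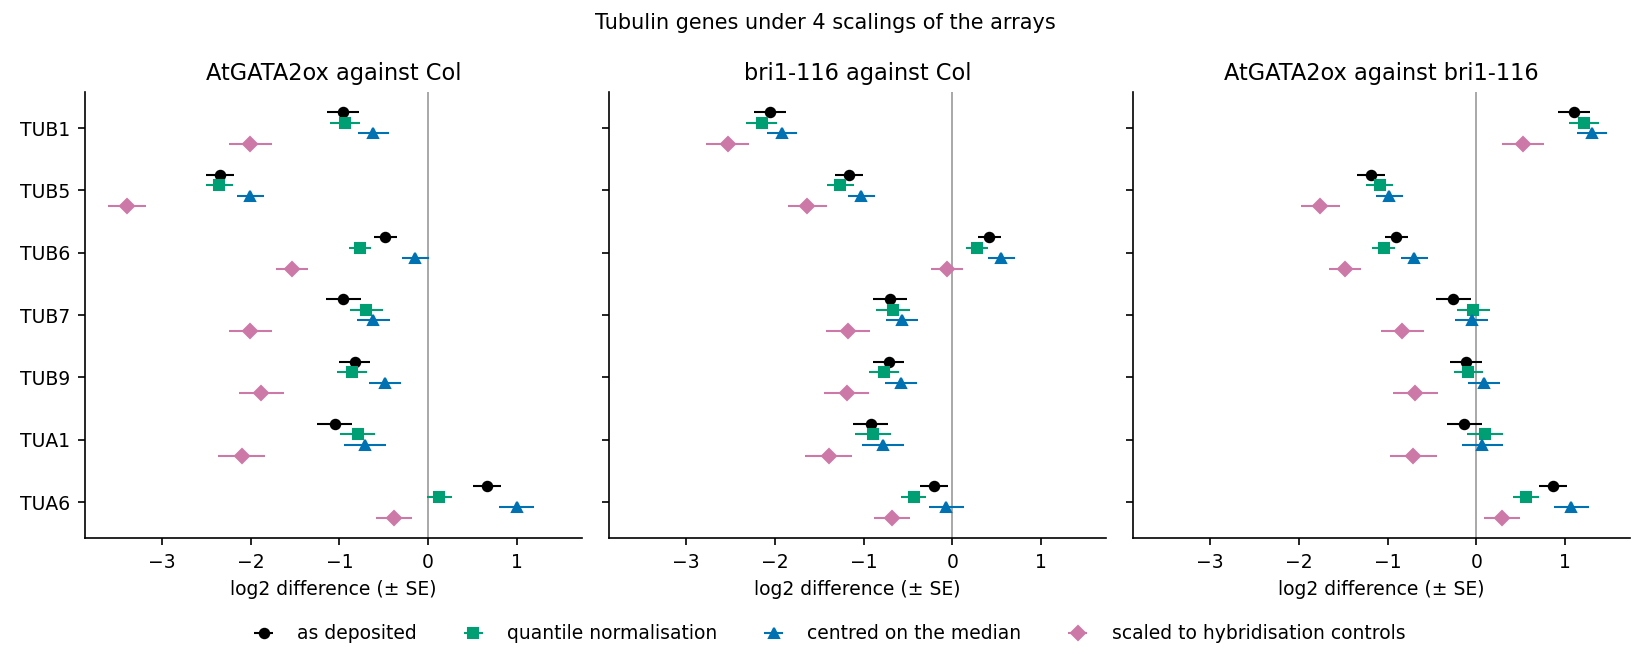
Log2 difference with its standard error for 7 tubulin genes in 3 comparisons, under the deposited scale (circles), quantile normalisation (squares), centring on the median (triangles) and scaling to the hybridisation controls (diamonds). TUB1 and TUB5 lie left of 0 against Col under all 4 scalings, whereas TUA6 in AtGATA2ox against Col lies at 0.66 as deposited and at -0.39 under the hybridisation controls, and TUB6 in bri1-116 against Col at 0.42 and -0.06.

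A ratio of 2 genes on the same array is not moved by any scaling that multiplies the whole array by 1 factor, though quantile normalisation can move it. Such ratios are given on the deposited values, as log2 minus the Col mean of that ratio. The ratio of TUB1 to TUB5 was -0.90 ± 0.22 (SD, n = 3) in bri1-116 but 1.39 ± 0.08 in AtGATA2ox, so these genes differed unequally and in opposite order. The ratio of TUB6 to TUA6 was above Col in bri1-116 (0.62 ± 0.12) and below it in AtGATA2ox (-1.15 ± 0.02). The ratio of TUB5 to TUA6 was lowest, at -3.01 ± 0.22 in AtGATA2ox, against -0.96 ± 0.24 in bri1-116. In contrast, the ratio of TUB5 to TUB6 was -1.58 in bri1-116 and -1.86 in AtGATA2ox, and the ratio of TUB9 to TUB7 was -0.02 and 0.13. These ratios are made from the comparisons that chose the genes and are given without a test.

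**Figure D3:**
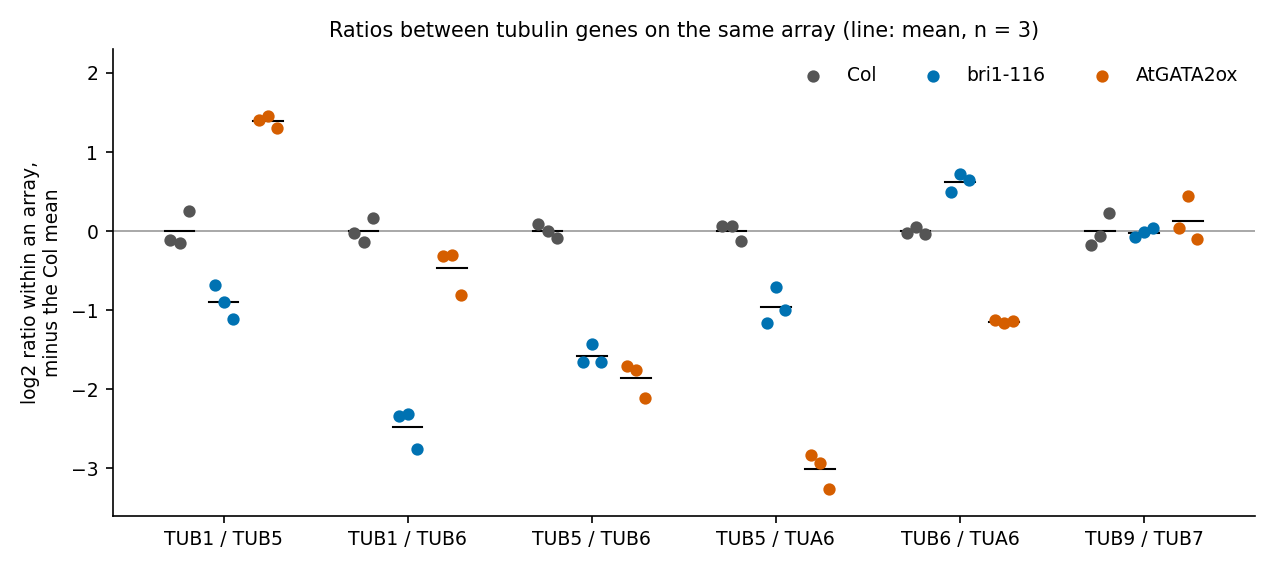
Log2 ratio of a pair of tubulin genes on the same array minus the mean of that ratio in Col, with 1 point per array and a line at the mean of 3 arrays. TUB1 over TUB5 lies below Col in bri1-116 (-0.90) and above it in AtGATA2ox (1.39), TUB6 over TUA6 lies the other way (0.62 and -1.15), and TUB9 over TUB7 stays near 0 (-0.02 and 0.13).

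The genes also differed in how closely arrays of a genotype agreed. The pooled SD of log2 intensity within genotypes was 0.071 for TUB6 and 0.069 for TUA6, and about 0.5% of the probe sets at or above the median level had a smaller one. It was 0.18 for TUB5, 0.23 for TUB1 and 0.24 for TUB9, against a median of 0.27 over those probe sets. The standard errors of the fit for TUB6 and TUA6 draw on probe sets of like brightness and are wider than their own arrays give.

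TUA1 and TUB7 were not among the chosen genes, and their limma adjusted p-values are given. TUA1 (AT1G64740), an alpha-tubulin gene known in Arabidopsis for expression in pollen, read 1034.3, 854.6 and 960.5 in Col, 425.1, 536.9 and 548 in bri1-116, and 346.8, 497.6 and 546.5 in AtGATA2ox. It fell in AtGATA2ox by 1.06 (-1.06 ± 0.20, limma adjusted p = 0.0013) and in bri1-116 by 0.92 (-0.92 ± 0.20, limma adjusted p = 0.0057), with 6 of 6 arrays below all Col arrays. With bri1-116 replicate 3 alone the latter was -0.79 (limma adjusted p = 0.17). AtGATA2ox and bri1-116 differed by -0.14 ± 0.20 (limma adjusted p = 0.68), and by -0.71 (limma adjusted p = 0.047) with hybridisation-control scaling.

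TUB7 (AT2G29550), a beta-tubulin gene, read 1238.9, 1010.7 and 776.8 in Col, 595.8, 684.4 and 556.3 in bri1-116, and 600.2, 493 and 448.1 in AtGATA2ox. It fell in AtGATA2ox (-0.96 ± 0.19, limma adjusted p = 0.0023) and in bri1-116 (-0.70 ± 0.19, limma adjusted p = 0.027), and again no array of either genotype reached the Col arrays. The bri1-116 call was lost without Col replicate 1 (-0.54) or 2 (-0.68), without bri1-116 replicate 1 (-0.68) or 3 (-0.63), with bri1-116 replicate 3 alone (-0.83) and with centring on the median (-0.56). AtGATA2ox against bri1-116 gave -0.26 ± 0.19 (limma adjusted p = 0.38), and -0.83 (limma adjusted p = 0.015) with hybridisation-control scaling.

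The alpha-tubulin probe set annotated to 2 genes read 13081.2, 11881.5 and 12583.5 in Col, 8712.8, 9033.3 and 9263.9 in bri1-116, and 17116.9, 13744.8 and 14522.8 in AtGATA2ox. The order of the genotypes was that of TUA6, with no overlap. AtGATA2ox was above bri1-116 by 0.74 (limma adjusted p = 0.0029), which was 0.17 with scaling to the hybridisation controls (limma adjusted p = 0.54) and 0.70 with bri1-116 replicate 3 alone (limma adjusted p = 0.12). Against Col, AtGATA2ox gave 0.27 (limma adjusted p = 0.23), which was -0.78 (limma adjusted p = 0.0039) with scaling to the hybridisation controls, and bri1-116 gave -0.47 (limma adjusted p = 0.058). The bri1-116 difference was called with hybridisation-control scaling (-0.95, limma adjusted p = 0.0039) and with quantile normalisation (-0.69, limma adjusted p = 0.0044). Tubulin genes are close copies of each other, and whether a probe set also binds RNA of a relative was not tested.

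The gene lists used from here on were chosen with earlier results of these arrays known. Adjusted p-values of their genes are therefore descriptions of these arrays and not independent tests. Other genes of the microtubule system were measured for 13 members of 4 lists. These were nucleation factors (1 of 21 symbols), folding factors (2 of 19), microtubule-associated proteins (8 of 53) and kinesins (2 of 37). Between AtGATA2ox and Col, 2 were higher, 3 were lower and 8 were not called, with a median of -0.67, and 25.1% of all singly named genes were called either way. Between bri1-116 and Col, 1 was higher, 3 were lower and 9 were not called, with a median of -0.28, against 13.1% of all genes. Between AtGATA2ox and bri1-116, 2 were higher, 3 lower and 8 not called, with a median of -0.11, against 24.1% of all genes. The medians of all singly named genes in the same order were -0.13, 0.007 and -0.15. Of these 13356 genes, 1150 were higher and 2204 lower in AtGATA2ox against Col, and 863 and 880 in bri1-116 against Col. In AtGATA2ox against bri1-116 they were 1092 and 2122.

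SP1L3, a relative of the plus-end microtubule protein SPIRAL1, read 3117.7, 2927.5 and 3135.4 in Col, 5215.2, 4483.1 and 4062.8 in bri1-116, and 7587, 5925.1 and 7560.3 in AtGATA2ox. The 3 genotypes did not overlap. It rose in AtGATA2ox (1.19 ± 0.15, limma adjusted p = 7.2e-05, but 0.14 with hybridisation-control scaling and not called) and in bri1-116 (0.58 ± 0.15, limma adjusted p = 0.02). The bri1-116 call was lost with any 1 array of Col or with bri1-116 replicate 1 or 2 left out (0.48 to 0.59), with bri1-116 replicate 3 alone (0.41) and with hybridisation-control scaling (0.10). AtGATA2ox was above bri1-116 by 0.61 ± 0.15 (limma adjusted p = 0.0087), which was 0.04 with hybridisation-control scaling and 0.78 with bri1-116 replicate 3 alone (limma adjusted p = 0.058). SPR1, which encodes SPIRAL1 itself, rose in AtGATA2ox by 0.62 ± 0.16 (limma adjusted p = 0.0098), but was at -0.43 with scaling to the hybridisation controls and lost its call with quantile normalisation (0.28), without Col replicate 2 (0.55) and without the intensity trend (limma adjusted p = 0.054).

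ATMAP65-6, of the family that bundles microtubules, read 438.7, 425.9 and 372.2 in Col, 253.7, 214.5 and 159.4 in bri1-116, and 203.2, 184.9 and 121.2 in AtGATA2ox. Both genotypes lay wholly below Col. It fell in AtGATA2ox (-1.31 ± 0.27, limma adjusted p = 0.0025) and in bri1-116 (-0.997 ± 0.27, limma adjusted p = 0.022). The latter lost its call with any 1 array of Col or with bri1-116 replicate 2 or 3 left out (-0.82 to -1.07) and with bri1-116 replicate 3 alone (-1.36).

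TON1B, needed for the ordering of cortical microtubules and for the preprophase band, read 300.4, 278.4 and 261.9 in Col, 294.8, 351.6 and 368.7 in bri1-116, and 139.5, 115.4 and 103.2 in AtGATA2ox. AtGATA2ox alone lay apart from Col. It fell in AtGATA2ox against Col (-1.23 ± 0.24, limma adjusted p = 0.0015) and against bri1-116 (-1.50 ± 0.24, limma adjusted p = 0.00038). KINESIN-13A, a motor protein that shortens microtubules, read 813.8, 723.8 and 674.7 in Col, 292.2, 436.6 and 526.6 in bri1-116, and 862.8, 616.7 and 577.6 in AtGATA2ox. It fell in bri1-116 (-0.85 ± 0.23, limma adjusted p = 0.021), a call lost without Col replicate 1 (-0.78) or 2 (-0.86), without bri1-116 replicate 1 (-0.62), with bri1-116 replicate 3 alone (-0.48) and with centring on the median (-0.72). Its AtGATA2ox arrays overlapped Col, at -0.12 ± 0.23 and not called, but at -1.17 (limma adjusted p = 0.0019) with hybridisation-control scaling. They lay above bri1-116 by 0.73 ± 0.23 (limma adjusted p = 0.029), which was 0.16 and not called with hybridisation-control scaling. That call was also lost without bri1-116 replicate 1 (0.49) or 2 (0.78) or AtGATA2ox replicate 1 (0.55). The difference was 0.36 with bri1-116 replicate 3 alone.

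AT3G23090, for which RefSeq lists the synonym WDL3, a microtubule-associated protein, read 160.5 to 214.8 in Col, but 6.7 to 49.5 in AtGATA2ox and 3.7 to 49.8 in bri1-116, levels within the range of the Bacillus controls in both genotypes. It was called lower in both (limma adjusted p = 0.015 in bri1-116 and 0.032 in AtGATA2ox), and the size is not given as it rests on values at background. The AtGATA2ox call was lost with any 1 array of Col or AtGATA2ox replicate 2 left out (limma adjusted p = 0.074 to 0.11), with quantile normalisation (limma adjusted p = 0.055) and with centring on the median (limma adjusted p = 0.058), and the bri1-116 call without Col replicate 1 or 2 or bri1-116 replicate 1 (limma adjusted p = 0.057 to 0.067) and with bri1-116 replicate 3 alone (limma adjusted p = 0.39). SP1L2 read 108.2 to 169.6 in bri1-116 and 3 to 15.5 in AtGATA2ox (limma adjusted p = 0.005, and 0.13 with bri1-116 replicate 3 alone). PFI, a tubulin folding cofactor, was lower in AtGATA2ox than in bri1-116 (-0.92 ± 0.29, limma adjusted p = 0.031), a call lost with any 1 array of bri1-116 (-0.83 to -0.998) or AtGATA2ox replicate 2 (-0.63) left out. It was also lost with quantile normalisation (-0.60), centring on the median (-0.72), only the compared groups (limma adjusted p = 0.073) and bri1-116 replicate 3 alone (-1.12).

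Of the actin list, 3 genes were measured and ACT11, an actin isoform, was called. It read 766.1, 680.5 and 590 in Col, 177.1, 201.7 and 224 in bri1-116, and 279.9, 306.9 and 293.2 in AtGATA2ox, and the genotypes did not overlap. It fell in bri1-116 (-1.75 ± 0.19, limma adjusted p = 4.1e-05) and in AtGATA2ox (-1.20 ± 0.19, limma adjusted p = 0.00045). COB, which is required for oriented cellulose deposition and was the 1 measured gene of 22 on the cellulose list, read 3221.7 to 3342.6 in Col and 2295.9 to 2535.4 in bri1-116. In AtGATA2ox against Col, COB gave -0.05 ± 0.13 and was not called, but -1.10 (limma adjusted p = 0.00046) with hybridisation-control scaling. It fell in bri1-116 by 0.44 on the log2 scale (-0.44 ± 0.13, limma adjusted p = 0.044), a call lost with any 1 array of Col or bri1-116 left out (-0.40 to -0.47), with bri1-116 replicate 3 alone (-0.37) and with centring on the median (-0.30).

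**Figure D4:**
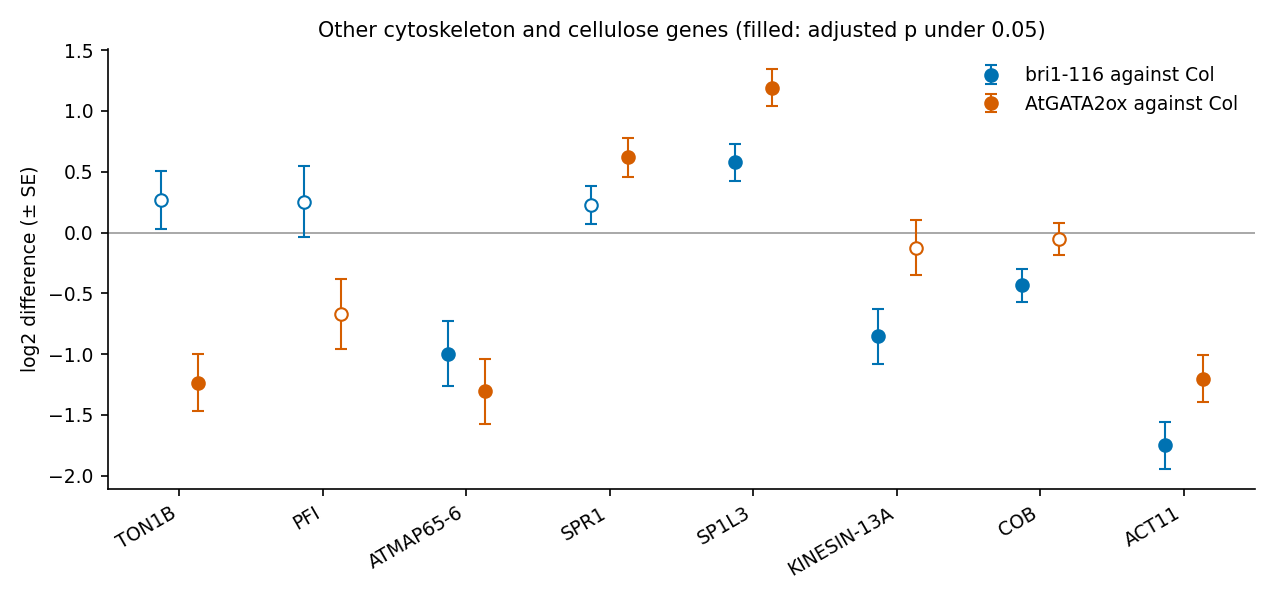
Log2 difference from Col with its standard error for 8 cytoskeleton and cellulose genes that were called in at least 1 comparison, without AT3G23090 and SP1L2, whose levels reach background, in bri1-116 (blue) and AtGATA2ox (orange); filled points have an adjusted p under 0.05. SP1L3 lies above 0 in both genotypes (0.58 and 1.19, and 0.10 and 0.14 with hybridisation-control scaling), ACT11 and ATMAP65-6 lie below 0 in both, TON1B lies below 0 in AtGATA2ox (-1.23), and SPR1 in AtGATA2ox lies at 0.62 but at -0.43 with scaling to the hybridisation controls.

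Of the measured markers of cell types, only AUR1 and EXPA18 were called, and the part of such markers in the tubulin values was not tested. Of all singly named genes, 25.1% were called between AtGATA2ox and Col and 13.1% between bri1-116 and Col. Of the cell division list, 3 of 21 genes were measured, AUR1, AUR2 and AUR3. Their summed intensity was higher in Col (563.4 to 821.3) than in every array of bri1-116 (328.8 to 476.7), and overlapped AtGATA2ox (284.8 to 653.2). Arrays of bri1-116 and Col did not overlap for 37.6% of all probe sets. AUR1 was the largest part of that sum in Col, with a mean of 447.8 against 170.7 for AUR2 and 75.5 for AUR3. AUR2 and AUR3 were not called in any comparison. Against Col, AUR2 gave -0.39 in bri1-116 and -0.09 in AtGATA2ox, and AUR3 gave 0.29 and -1.45. AUR1, a mitotic kinase, fell in bri1-116 (-1.35 ± 0.27, limma adjusted p = 0.0033) and in AtGATA2ox (-1.02 ± 0.27, limma adjusted p = 0.011), the latter not called without Col replicate 1 (-0.87), with quantile normalisation (-0.60) or with centring on the median (-0.68). The bri1-116 difference was -1.46 and not called with bri1-116 replicate 3 alone (limma adjusted p = 0.064). Of the root hair list, 2 of 10 genes were measured, and their sums overlapped between AtGATA2ox (36.8 to 139.2), bri1-116 (87.1 to 101.4) and Col (94.0 to 132.9). Of these genes, EXPA7 was not called in any comparison. Its mean was higher in AtGATA2ox (57.4) and bri1-116 (50.8) than in Col (34.9), with overlapping arrays. EXPA18, a root hair expansin, read 67.6 to 102.9 in Col and 3.7 to 29.6 in AtGATA2ox, and was called lower there (limma adjusted p = 0.02), with no size given as these levels reach into the range of the Bacillus controls. That call was lost without Col replicate 1 or 2 or AtGATA2ox replicate 2 (limma adjusted p = 0.053 to 0.08). The 3 measured genes of 10 on the stomatal list were not called, and their sums overlapped too, at 72.6 to 133.5 in AtGATA2ox, 93.4 to 172.7 in bri1-116, and 32.7 to 110.7 in Col. CLV3, the 1 measured gene of 8 on the shoot meristem list, read at most 38.9 on any array. The xylem, phloem and shoot epidermis lists had 0 measured genes, so these tissues were not checked.

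Genes with the pattern most like each tubulin gene were ranked among 5995 others, by the root-mean-square difference of log2 intensities over the 9 arrays after centring each gene. For TUB1 the nearest were PUB19, a U-box ubiquitin ligase (0.25), AT3G52360 (0.26) and AT5G26260 (0.27). For TUB5 they were AT3G16850 (0.15), AT3G26720 (0.15) and AT4G25260 (0.16). For TUB6 they were AT5G25080 (0.094), AT3G14100 (0.10) and AT3G07670 (0.10). PUB19 and TUB1 were both lowest in bri1-116, and AT3G16850 and TUB5 were both lowest in AtGATA2ox. Such shared orders follow from the ranking and are no separate result. For TUB9 the nearest were AT2G31800 (0.091), the exocyst gene SEC15B (0.12) and AT3G14960 (0.12), and for TUA6 UBA1A (0.078), AT2G25520 (0.079) and AT5G36290 (0.10). No tubulin gene was among these. The nearest tubulin pair was TUB9 and TUB7 (0.18), with TUB7 at place 28 for TUB9, while TUB5 stood at place 2578 for TUB1. All these genes share the same 9 arrays and their scaling.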

How the data were processed

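The authors deposited linear intensities for 22810 probe sets on 9 Affymetrix arrays, with biotin-labelled cRNA from 10 µg of total RNA. The submitters' processing notes name MAS5 and GCRMA without versions; which of them made these values is not stated. On every array the mean without the lowest and highest 2% was 500, so scaling was done before deposit. Genes were named from GEO's platform annotation with symbols from RefSeq: 13513 probe sets had 1 gene, 503 had several and 8730 were not listed. The 64 array controls were left out of tests.

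All 9 arrays were fitted together with limma 3.58.1 in R 4.3.3 (lmFit, eBayes with an intensity trend, 6 residual degrees of freedom, Benjamini-Hochberg adjustment) on log2(intensity + 1), with no low-value filter. The steps were tested on simulated data. The number of arrays limits the precision. Each gene was taken by its brightest singly annotated probe set. The members and lists were chosen with earlier results of these data known. Named are the chosen genes, other tubulins, called list genes (at most 4 per list and comparison) and the 3 nearest patterns. Of 281 other list symbols, 26 were measured; 3 that matched another gene were left out.

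Shared replicate numbers showed no visible pairing of the samples. Same-number correlations of deviations were -0.018 to 0.020, against -0.037 to 0.031 for different numbers. Whether samples of the same number were handled together is not stated, and these values cannot decide it. The alternatives tried were centring on the median, quantile normalisation, scaling to the 18 hybridisation control probe sets, a pseudocount of 16, omitting the dimmest 40% of probe sets, array weights, no intensity trend, only the compared groups, a replicate block and leaving out each array; bri1-116 by replicate 3 alone was added after seeing the data.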

Additional observations from a re-analysis of the deposited data

How the results depend on the processing

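TUB1 and TUB5 kept their direction and call against Col in both genotypes under all 19 alternatives, as did TUA1 and TUB7 in AtGATA2ox. Some alternatives could change a call but not a difference, so they say nothing on direction. These were no intensity trend, omitting the dimmest probe sets, only the compared groups, the replicate block and leaving out arrays of the genotype not compared. Without the intensity trend, calls were lost in bri1-116 against Col for TUB6, TUB9, TUB7, SP1L3, ATMAP65-6, KINESIN-13A, COB and AT3G23090. In AtGATA2ox against Col they were lost for TUB6, SPR1 and AT3G23090. In AtGATA2ox against bri1-116 they were lost for SP1L3, KINESIN-13A and PFI. For AtGATA2ox against Col, 3 of the 5 genes were called with centring on the median, 2 of them lower, and 0 were higher with quantile normalisation or hybridisation-control scaling. Leaving out 1 array gave 4 to 5 called, 3 to 4 of them lower. For bri1-116 against Col, 2 were called without the intensity trend and with replicate 3 alone, and leaving out 1 array gave 2 to 4. None (0) was higher there with quantile normalisation, hybridisation-control scaling, no trend, the replicate block or replicate 3 alone, and 0 to 1 with 1 array left out. For AtGATA2ox against bri1-116, 0 were higher with hybridisation-control scaling and 1 with replicate 3 alone.

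Of the 13 other microtubule genes, 5 were called in AtGATA2ox against Col, 3 with quantile normalisation or no trend, 9 with hybridisation-control scaling, and 3 to 6 with 1 array left out. In bri1-116 against Col 4 were called, 0 without the trend or with replicate 3 alone, and 0 to 5 with 1 array left out. In AtGATA2ox against bri1-116 5 were called, 2 without the trend, 3 with only the compared groups, 1 with replicate 3 alone, and 3 to 5 with 1 array left out. Scaling to the hybridisation controls turned TUA6 (-0.39), the 2-gene alpha-tubulin probe set (-0.78) and SPR1 (-0.43) in AtGATA2ox against Col, and TUB6 (-0.056) in bri1-116 against Col; this scaling lowers every value of a comparison by the shift given above. The cause of the other changes was not tested. Counts of called genes are not read alone, as calls over all 22746 probe sets moved too. With bri1-116 replicate 3 alone that genotype has 1 array, and calls over all probe sets were fewer too. For AtGATA2ox against Col these were 2211 higher and 4275 lower as deposited, but 421 and 12046 with hybridisation-control scaling. They were 2685 and 2998 with quantile normalisation and 1711 and 3350 without the trend. Leaving out 1 array gave 1725 to 2269 higher and 3069 to 4456 lower. For bri1-116 against Col they were 1612 and 1819, and 976 and 1128 without the trend. Leaving out 1 array there gave 1055 to 1900 higher and 1097 to 2215 lower. For AtGATA2ox against bri1-116 they were 2172 and 3914, and 1753 and 3034 without the trend. With 1 array left out they were 1775 to 2173 higher and 2807 to 4227 lower. The replicate numbers showed no visible pairing of the samples. With the block, the calls of TUB6 (limma adjusted p = 0.062) and COB (0.057) in bri1-116 were lost and no other named call changed. Taking the mean of several probe sets gave no separate value, as each of these genes has 1.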
